A study of Ovis aries with 20 samples.

Results

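Collagens are the main load-bearing proteins of the extracellular matrix, and 7 collagen genes of the newborn lamb heart are described here: COL1A1, COL1A2, COL3A1, COL5A2, COL6A1, COL12A1 and COL16A1. They were taken as every probe whose gene name or description in the scanner files names one of these chains, which gave 12 of the 15008 probes on the array and 7 of the 850 genes that could be named. Each gene is represented by its brightest probe over the 20 arrays, called the lead probe, and its other probes are given beside it. The 4 groups of 5 arrays were left ventricle (LV) of cortisol lambs, LV of control lambs, septum (the wall between the ventricles) of cortisol lambs and septum of control lambs. The cortisol lambs were born to ewes infused with 1 mg/kg/day of cortisol, the main glucocorticoid of the adrenal gland, from about gestation day 115, and the control lambs to ewes given vehicle over the same time. All were singletons, their titles carry the word telemetry, and they were killed between 10 and 480 min after birth. The time of each lamb was not among the labels. Raised cortisol was that of the ewe, and the dose that reached each lamb was not given. The same treatment and number in both regions was taken as 1 lamb, so the 20 arrays come from 10 lambs.

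Fibroblasts make most of the collagen of heart muscle. Type I collagen, built from the COL1A1 and COL1A2 chains, forms the stiff fibres of the tissue, and type III collagen (COL3A1) forms finer fibres beside it. Type V collagen (COL5A2) sits inside these fibrils and helps to start them. Type VI collagen (COL6A1 is one of its chains) builds beaded filaments between cells and fibres, while types XII and XVI (COL12A1, COL16A1) bind to the surface of fibrils. Each fibrillar chain repeats glycine after each pair of other residues, so that 3 chains can wind into a triple helix.

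That repeat can be read in the probes, which are 60 bases long. The lead probes are shown because all levels rest on them, with 2 further COL3A1 probes because that chain gave the widest difference between the regions on several probes. Capitals mark a glycine codon (GGN) at every position of a 9-base register, and they are given only where every codon of the register is GGN.
COL1A1 probe 1: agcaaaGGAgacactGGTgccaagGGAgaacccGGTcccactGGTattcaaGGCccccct
COL1A2: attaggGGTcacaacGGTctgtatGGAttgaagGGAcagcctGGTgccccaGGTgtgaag
COL3A1 probe 1: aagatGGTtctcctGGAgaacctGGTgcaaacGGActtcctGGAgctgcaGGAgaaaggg
COL3A1 probe 2: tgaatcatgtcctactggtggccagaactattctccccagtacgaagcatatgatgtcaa
COL3A1 probe 4: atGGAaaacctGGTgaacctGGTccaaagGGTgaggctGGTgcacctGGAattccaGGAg
COL5A2: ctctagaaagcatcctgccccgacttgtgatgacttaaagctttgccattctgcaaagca
COL6A1 probe 1: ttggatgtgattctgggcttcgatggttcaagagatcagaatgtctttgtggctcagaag
COL12A1: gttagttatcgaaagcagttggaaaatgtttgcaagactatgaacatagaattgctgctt
COL16A1: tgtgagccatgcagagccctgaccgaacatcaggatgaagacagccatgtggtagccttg

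The full repeat was present in 4 of the 12 collagen probes, against 24 of all 15008 probes (0.160%), searched on the printed strand. Probes of different collagen genes shared no run of letters longer than 9 bases. COL3A1 probes 2 and 3 shared 58 of their 60 bases and are not independent readings of the chain. The record behind both COL6A1 probes has a title that names the alpha 3 chain of type VI collagen while giving the symbol COL6A1, so they may read COL6A3, the chain its title names, and they are called COL6A1 here as the files do. In the sheep annotation COL3A1 and COL5A2 lie next to each other on chromosome 2, with 0 genes between them.

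A level in the text is the log2 of a probe's processed signal minus the 75th percentile of that signal on the same array, so 0 is the brightness of a probe at that percentile. Levels of different probes are not compared, because probes differ in how well they bind. Between 57.9% and 72.1% of spots were well above background on each array, and the 75th percentile lay between 99.2 and 441 intensity units. The arrays lay on 4 slides that follow the lambs: slide 1 (septum) and slide 3 (LV) each held 3 cortisol and 3 control arrays of the same 6 lambs, slide 4 held the LV array of cortisol lamb 4 alone, and slide 2 held the other 7 arrays. Both regions lay on slide 2 for 3 lambs, cortisol 5, control 3 and control 5. The heart muscle markers that could be named, MB (myoglobin) and TPM1 (a tropomyosin), were bright, with a mean level of 7.33 to 8.54 on the 15 arrays where both spots were kept. Both were left out as outlier spots on 4 LV arrays, and TPM1 alone on 1 more. No collagen probe was saturated. All lead probes were well above background on all 20 arrays except those of COL12A1, which missed on 1 array of each LV group, and of COL16A1, which missed on 1 LV cortisol array and in septum was well above background on only 2 of 5 cortisol and 3 of 5 control arrays.

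Cortisol lambs were compared with control lambs in LV to ask whether raised maternal cortisol went with other collagen transcript levels at birth. The lead probes of all 7 chains averaged higher in cortisol lambs, by 0.07 to 0.89 on the log2 scale, but 0 of 7 passed the test, and the lambs of the cortisol group lay far apart. COL1A1 had levels of -0.35, -0.55, 0.45, -2.08 and -1.91 in LV of cortisol lambs 1 to 5, against -1.33, -1.73, -2.28, -1.73 and -1.80 in LV of control lambs 1 to 5. Cortisol lambs 1 to 3 lay above every control and cortisol lambs 4 and 5 lay within the control range, so the groups overlapped. The difference was 0.89 ± 0.45 (SE, adjusted p = 0.877, limma), with a 95% interval of -0.09 to 1.86.

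COL1A2, which pairs with COL1A1 in type I collagen, had levels of 0.85, 1.02, 0.19, -0.09 and -2.30 in LV of cortisol lambs, against -0.34, -0.71, -0.82, -0.42 and -0.53 in LV of control lambs. Cortisol lambs 1 to 4 lay above all 5 controls and cortisol lamb 5 lay below all of them. The difference was 0.50 ± 0.52 (SE, adjusted p = 0.895, limma).

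COL3A1 had levels of 3.41, 3.30, 2.65, 2.19 and -0.03 in LV of cortisol lambs, against 2.15, 1.91, 2.23, 2.82 and 2.07 in LV of control lambs. Its spread was 1.40 (SD, n = 5) in cortisol lambs and 0.35 in controls (SD, n = 5), and cortisol lamb 5 stood lowest of the 10. The difference was 0.07 ± 0.56 (SE, adjusted p = 0.985, limma), and its sign turned when any of cortisol lambs 1, 2 and 3 or control lamb 2 was left out. The other 3 COL3A1 probes gave differences of 0.10, 0.10 and 0.50, all below the threshold.

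COL5A2 had levels of -0.37, 0.12, 0.02, -0.50 and -1.05 in LV of cortisol lambs, against -1.08, -0.51, -0.46, -0.23 and -0.79 in LV of control lambs. The groups overlapped, and the difference of 0.26 ± 0.25 (SE, adjusted p = 0.888, limma) was about the size of its error. COL6A1 had levels of -1.23, -0.98, -0.39, -2.10 and -2.67 in LV of cortisol lambs, against -1.35, -2.92, -2.63, -2.07 and -2.15 in LV of control lambs. Cortisol lambs 1 to 3 were again the highest, with a group difference of 0.75 ± 0.43 (SE, adjusted p = 0.877, limma), and the second COL6A1 probe gave 0.63.

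The 2 chains that bind to fibril surfaces each had LV arrays on which the probe was not well above background. COL12A1 had levels of -3.73, -1.49, -1.99, -1.64 and -2.69 in LV of cortisol lambs, against -3.71, -1.86, -3.01, -2.36 and -3.12 in LV of control lambs. Lamb 1 was lowest in both groups, at levels not well above background, and the difference was 0.51 ± 0.46 (SE, adjusted p = 0.883, limma). COL16A1 had levels of -3.38, -3.02, -2.84, -3.05 and -5.77 in LV of cortisol lambs, against -3.37, -3.24, -3.78, -4.05 and -4.15 in LV of control lambs. Cortisol lamb 5 stood alone, on an array where the probe was not well above background, and the difference was 0.11 ± 0.50 (SE, adjusted p = 0.976, limma). Leaving out any of cortisol lambs 2, 3 and 4 or control lamb 5 turned its sign.

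**Figure D1:**
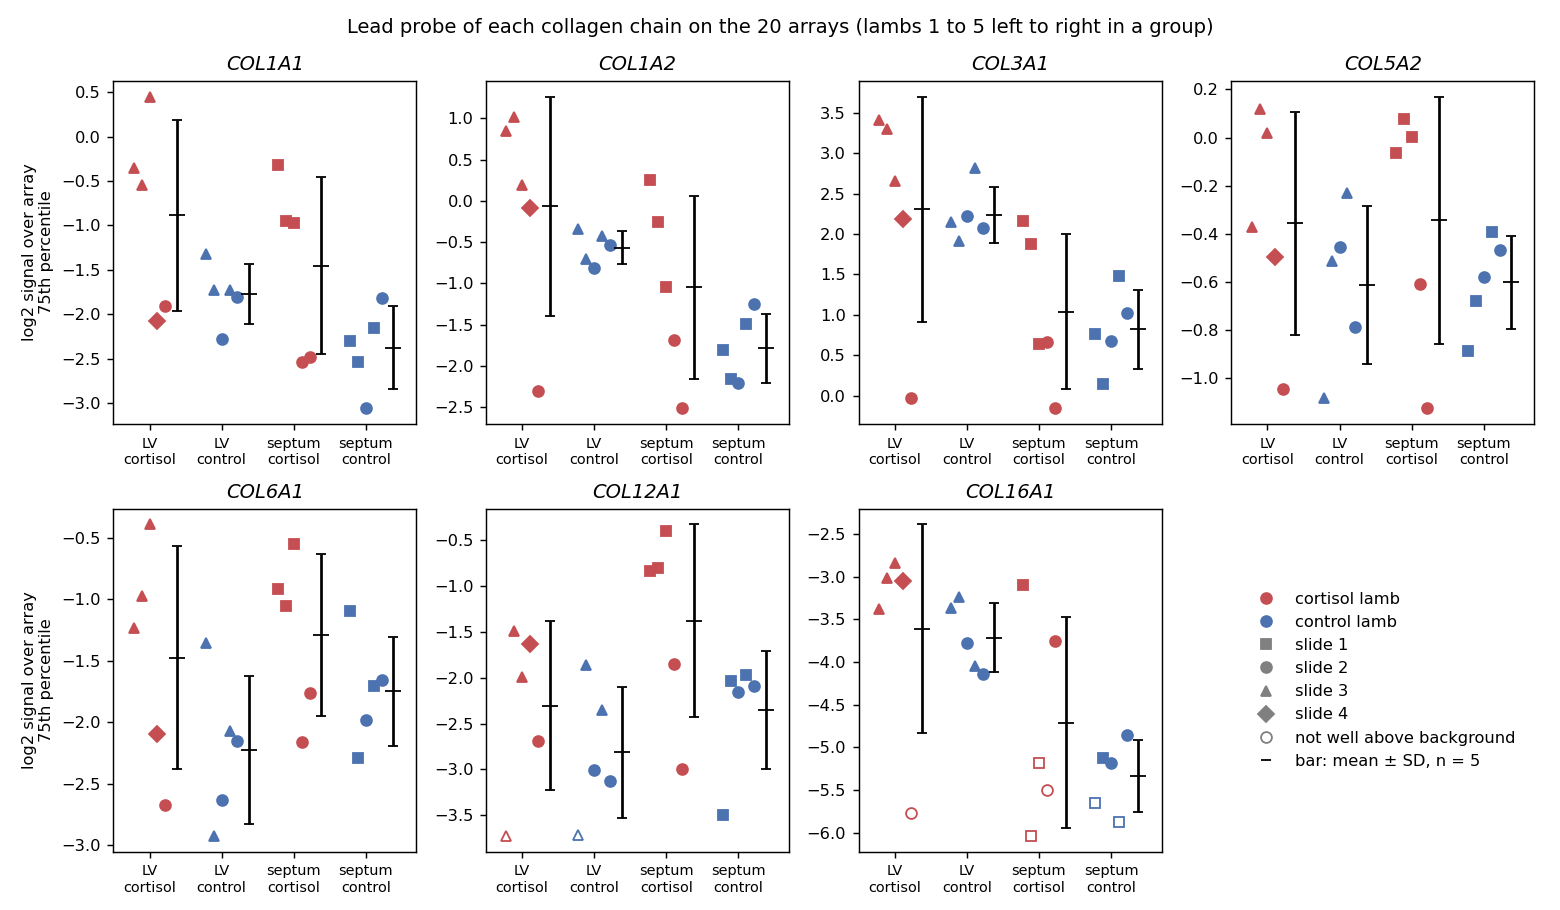
Level of the lead probe of each collagen gene (vertical axis, log2 signal over the array's 75th percentile) on the 20 arrays, by region and treatment, with the group mean and SD (n = 5) as a black bar. Shapes give the slide and open symbols mark arrays where the probe was not well above background. In COL1A1, cortisol lambs 1 to 3 lie above all controls in both regions, and in COL1A2 and COL3A1 the LV and septum of cortisol lamb 5 are the lowest of their region.

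Over the whole array 0.0% of 9791 probes passed in LV (0 probes at an adjusted p under 0.05, 508 probes or 5.19% at an unadjusted p under 0.05, limma), so 0 of 7 collagens is the share that all probes had. The second COL1A1 probe, with a difference of 0.70, also did not pass. Of all probes tested in LV, 49.1% had a positive difference, beside 7 of 7 collagen lead probes, and the median difference was -0.01 over all probes and 0.50 over the collagens. The groups overlapped for all 7 lead probes, as they did for all but 0.735% of probes. The chains are not separate observations, since all were read on the same arrays.

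In septum the cortisol difference was positive in 7 of 7 lead probes as well, from 0.22 to 0.97, and again 0 of 7 passed, beside 0.0% of the 10369 probes tested (0 at an adjusted p under 0.05, 385 or 3.71% at an unadjusted p under 0.05, limma). The median difference was 0.62 over the collagens and 0.03 over all probes, of which 54.7% were positive, and the groups overlapped for all 7 lead probes and for all but 0.386% of probes. COL1A1 had levels of -0.32, -0.95, -0.97, -2.54 and -2.48 in septum of cortisol lambs 1 to 5, against -2.31, -2.54, -3.06, -2.15 and -1.82 in septum of control lambs 1 to 5. Cortisol lambs 1 to 3 lay above every control, as in LV, and cortisol lambs 4 and 5 within the control range. The difference was 0.92 ± 0.44 (SE, adjusted p = 0.818, limma), with a 95% interval of -0.04 to 1.88.

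COL1A2 had levels of 0.25, -0.26, -1.04, -1.68 and -2.52 in septum of cortisol lambs, against -1.80, -2.16, -2.21, -1.49 and -1.26 in septum of control lambs. Cortisol lambs 1 to 3 were above all controls and cortisol lamb 5 below all of them, and the difference was 0.74 ± 0.46 (SE, adjusted p = 0.818, limma). COL3A1 had levels of 2.15, 1.88, 0.64, 0.66 and -0.16 in septum of cortisol lambs, against 0.76, 0.14, 0.68, 1.49 and 1.02 in septum of control lambs. Only cortisol lambs 1 and 2 exceeded the controls, and the difference of 0.22 ± 0.43 (SE, adjusted p = 0.900, limma) turned negative without cortisol lamb 1. The other 3 COL3A1 probes gave 0.40, 0.42 and 0.61.

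COL5A2 had levels of -0.06, 0.08, 0.00, -0.61 and -1.13 in septum of cortisol lambs, against -0.89, -0.68, -0.58, -0.39 and -0.47 in septum of control lambs. COL6A1 had levels of -0.92, -1.06, -0.55, -2.16 and -1.76 in septum of cortisol lambs, against -1.09, -2.29, -1.98, -1.71 and -1.66 in septum of control lambs. In both chains cortisol lambs 1 to 3 stood above the highest control, and the differences were 0.26 ± 0.24 for COL5A2 and 0.46 ± 0.32 for COL6A1 (SE, adjusted p = 0.827 and 0.818, limma). COL12A1 had levels of -0.84, -0.81, -0.41, -1.85 and -3.00 in septum of cortisol lambs, against -3.49, -2.04, -2.16, -1.97 and -2.10 in septum of control lambs. Cortisol lambs 1 to 4 lay above all controls in that chain, and its difference of 0.97 ± 0.48 (SE, adjusted p = 0.818, limma) was the widest of the septum set. COL16A1 had levels of -3.10, -6.04, -5.18, -5.50 and -3.75 in septum of cortisol lambs, against -5.65, -5.12, -5.18, -5.88 and -4.86 in septum of control lambs. Only 2 of the 5 cortisol readings and 3 of the 5 control readings were well above background, and the difference was 0.62 ± 0.51 (SE, adjusted p = 0.818, limma).

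The cortisol differences moved with the slide in both regions. On slide 3, with 3 cortisol and 3 control LV arrays, the 7 differences were all positive, at 1.44 for COL1A1, 1.18 for COL1A2, 0.83 for COL3A1, 0.53 for COL5A2, 1.25 for COL6A1, 0.24 for COL12A1 and 0.48 for COL16A1. On slide 2, where cortisol lamb 5 alone stood against control lambs 3 and 5, LV differences were 0.13 for COL1A1 and 0.38 for COL12A1 but -1.63 for COL1A2, -2.18 for COL3A1, -0.42 for COL5A2, -0.28 for COL6A1 and -1.81 for COL16A1. The septum arrays of slide 1 gave 1.58 for COL1A1, 1.47 for COL1A2, 0.76 for COL3A1, 0.66 for COL5A2, 0.86 for COL6A1, 1.82 for COL12A1 and 0.78 for COL16A1. The septum arrays of slide 2, from cortisol lambs 4 and 5 and control lambs 3 and 5, gave -0.07, -0.37, -0.60, -0.34, -0.14, -0.30 and 0.39 for the same chains in that order. Since slide follows lamb, slide and differences between lambs cannot be told apart.

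**Figure D2:**
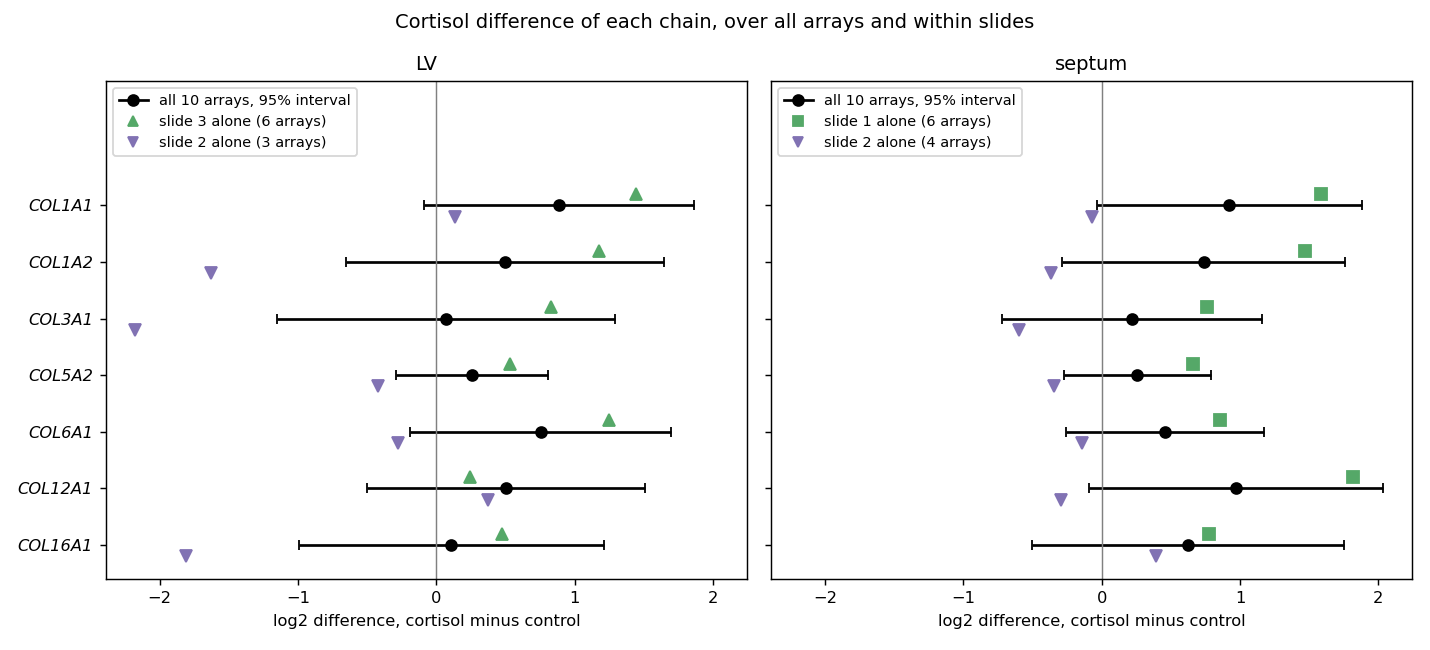
Cortisol minus control difference of each chain's lead probe (horizontal axis, log2) in LV and septum. Black points are the fit over all 10 arrays with its 95% interval, which spans 0 in all 14 cases, and coloured points are the fits within single slides, which lie to the right of 0 on the 6-array slides and mostly to the left on slide 2.

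The mean of other fibroblast transcripts was also high in cortisol lambs 1 to 3. Of 14 fibroblast markers, 4 could be named and tested (VIM, DCN, S100A4 and FBLN1), and none passed for cortisol in either region. In LV the cortisol difference was 2.19 ± 1.08 for S100A4, 0.51 ± 0.33 for VIM, 0.42 ± 0.31 for FBLN1 and 0.29 ± 0.30 for DCN (SE). S100A4 thus weighed most in the LV mean. In septum S100A4 differed by 0.34 ± 0.95, VIM by 0.47 ± 0.33, FBLN1 by 0.52 ± 0.31 and DCN by 0.32 ± 0.25 (SE). The mean level of the 4 markers was 2.21, 3.01, 2.00, 1.71 and 1.04 in LV of cortisol lambs 1 to 5, against 1.75, 0.49, 0.49, 1.54 and 1.42 in LV of control lambs 1 to 5. In septum it was 2.80, 2.74, 2.60, 1.50 and 0.45 in cortisol lambs 1 to 5, against 1.47 to 1.72 in control lambs, and cortisol lamb 5 was the lowest of the 10. In both regions cortisol lambs 1 to 3 had the highest means, while cortisol lamb 5 lay within the control range in LV. Positive cortisol differences were not limited to fibroblast markers. All 5 myeloid markers were positive in LV and septum (medians 0.17 and 0.32). So were the 2 heart muscle markers (0.34 and 0.35) and 2 markers of epicardium and skeletal muscle (1.16 and 1.00). Of 5 endothelial markers 2 were positive in LV and 3 in septum, and the 1 smooth muscle marker was negative in both. None of these passed. In tissue RNA, more cells of a type and more RNA per cell cannot be told apart. The part of fibroblast or other cell content in the collagen levels was not tested. Array brightness also moved with the lambs in LV, where the 75th percentile was 99.8, 110 and 99.2 units in cortisol lambs 1 to 3, against 402 and 272 units in cortisol lambs 4 and 5 and 103 to 266 units in controls. Its part was likewise not tested. In septum the 75th percentile of cortisol lambs 1 to 3 was 177, 304 and 155 units, against 256 and 292 units in cortisol lambs 4 and 5 and 266 to 441 units in controls. Cortisol lamb 2 was thus brighter there than cortisol lambs 4 and 5.

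The other genes around collagen were described by lists. The 3 matrix partners of fibrillar collagen that were measured, of 31 listed, are DCN (decorin) and BGN (biglycan), small proteoglycans that bind fibrils, and FBLN1 (fibulin 1), a glycoprotein of elastic fibres and basement membranes. DCN and FBLN1 are also among the fibroblast markers given above. None of the 3 matrix partners passed in either region. BGN differed by 0.64 ± 0.20 in LV and 0.74 ± 0.32 in septum (SE, adjusted p = 0.877 and 0.818, limma), FBLN1 by 0.42 ± 0.31 and 0.52 ± 0.31 (adjusted p = 0.877 and 0.818), and DCN by 0.29 ± 0.30 and 0.32 ± 0.25 (adjusted p = 0.893 and 0.818). Of 11 tested genes of TGF-beta signalling, a pathway that drives matrix synthesis, 10 had a positive difference in LV and 10 in septum, and 0 passed, with medians of 0.43 in LV and 0.39 in septum. The list holds ligands, receptors and SMADs, among them SMAD7, which inhibits the pathway and differed by 0.49 in LV and 0.80 in septum. INHBA, a chain of activin A, had the widest difference of the list. It was 1.60 ± 0.62 in LV and 1.34 ± 0.58 in septum (SE, adjusted p = 0.877 and 0.818, limma). Among 8 genes of collagen degradation and receptors 7 were positive in LV and 6 in septum, with medians of 0.15 and 0.23, and 0 passed. The 3 other collagen chains and the 2 biosynthesis genes were positive throughout, with medians of 0.12 and 0.09 in LV and 0.43 and 0.33 in septum, and 0 passed.

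Septum was then compared with LV within lambs, with lamb as a block, to ask which chains differ between the 2 walls. COL3A1, COL1A2 and COL1A1 fell in septum relative to LV, by 1.34, 1.10 and 0.58 on the log2 scale, and COL6A1 rose by 0.33 on its lead probe. COL16A1 was also called lower, on septum readings of which 5 of 10 were well above background, so its size is uncertain. COL12A1 and COL5A2 did not pass. Thus 4 of 7 lead probes were called lower, where 9.95% of the 10069 probes tested were, and 1 of 7 higher, where 9.79% were (19.7% of probes called in all, 1002 lower and 986 higher, limma).

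COL3A1 was lower in septum in 10 of 10 lambs, and all 4 of its probes passed. The within-lamb differences of its lead probe were -1.26, -1.42, -2.01, -1.53 and -0.13 in cortisol lambs 1 to 5, and -1.39, -1.77, -1.55, -1.33 and -1.05 in control lambs 1 to 5. Only cortisol lamb 5 came near to 0. The fitted difference was -1.34 ± 0.15 (SE, adjusted p = 2.8e-04, limma), a level 2.53 times higher in LV, and the other probes gave -1.04, -0.92 and -0.53, the last with 9 of 10 lambs lower. A probe being lower in septum in all 10 lambs was seen for 3.1% of all probes tested.

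COL1A2 was also lower in 10 of 10 lambs. Its within-lamb differences were -0.60, -1.28, -1.23, -1.60 and -0.21 in cortisol lambs 1 to 5, and -1.46, -1.46, -1.40, -1.07 and -0.72 in control lambs 1 to 5, a fitted -1.10 ± 0.13 (SE, adjusted p = 4.6e-04, limma). COL1A1, the other chain of type I collagen, was lower in 9 of 10 lambs, with differences of 0.03, -0.41, -1.42, -0.46 and -0.57 in cortisol lambs and -0.98, -0.82, -0.78, -0.42 and -0.02 in control lambs. The fit gave -0.58 ± 0.13 (SE, adjusted p = 0.011, limma), while the second COL1A1 probe, at -0.36 ± 0.14, did not pass (adjusted p = 0.0995, limma).

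COL5A2, the neighbour of COL3A1 on the chromosome, had differences of 0.31, -0.04, -0.02, -0.11 and -0.08 in cortisol lambs and 0.20, -0.17, -0.12, -0.17 and 0.32 in control lambs. They lay on both sides of 0, with a fitted difference of 0.01 ± 0.07 (SE, adjusted p = 0.921, limma) and a 95% interval of -0.14 to 0.16. The COL6A1 lead probe had differences of 0.31, -0.08, -0.16, -0.06 and 0.91 in cortisol lambs and 0.26, 0.63, 0.65, 0.36 and 0.49 in control lambs, higher in septum in 7 of 10 lambs (0.33 ± 0.11 SE, adjusted p = 0.049, limma). It passed without any of cortisol lambs 2, 3 and 4 but not without any other single lamb (adjusted p = 0.072 to 0.105, limma). The second COL6A1 probe gave -0.15 ± 0.13 (SE, adjusted p = 0.425, limma), so the 2 probes of this record disagreed in sign.

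COL12A1 was higher in septum in 7 of 10 lambs, from -0.31 to 2.89, and did not pass (0.69 ± 0.27 SE, adjusted p = 0.093, limma). COL16A1 was lower in 8 of 10 lambs, from -3.02 to 2.02, with a fitted -1.36 ± 0.42 (SE, adjusted p = 0.042, limma). That value rests on septum readings of which 5 of 10 were well above background, and normexp background correction reduced it to -0.24. It passed without cortisol lamb 1 or 5 but not without any other single lamb (adjusted p = 0.063 to 0.090, limma).

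**Figure D3:**
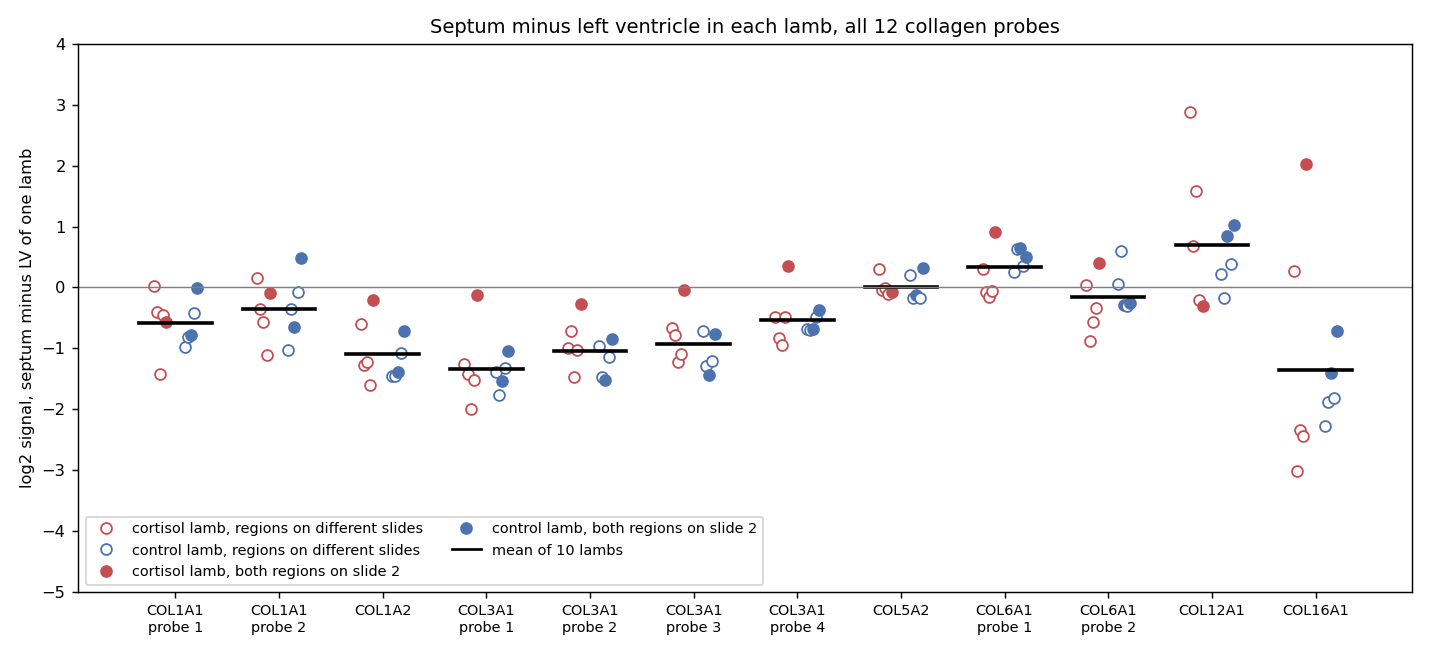
Septum minus LV difference of each lamb (vertical axis, log2) for the 12 collagen probes, with the mean of 10 lambs as a black line; filled points are lambs with both regions on slide 2. The 4 COL3A1 probes and COL1A2 lie below 0 in nearly all lambs, COL5A2 lies near 0, and the COL6A1 probes fall on both sides.

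Region was largely confounded with slide, so the part of the slide can be separated only through the 3 lambs with both regions on slide 2. Among those 3 lambs alone COL3A1 differed by -0.91, COL1A2 by -0.78, COL1A1 by -0.46, COL6A1 by 0.68, COL12A1 by 0.52, COL5A2 by 0.04 and COL16A1 by -0.03, all with the sign of the 10-lamb fit. No chain passed there (lowest adjusted p of a lead probe 0.355) or with slide as a fixed block (lowest 0.076, where 0.348% of probes passed). The COL16A1 value on slide 2 averaged lambs of opposite sign, at 2.02 in cortisol lamb 5 and -1.40 and -0.71 in control lambs 3 and 5. On the LV array of cortisol lamb 5 that probe was not well above background. Control lambs alone gave -1.42 for COL3A1, -1.22 for COL1A2 and -0.60 for COL1A1 (adjusted p = 0.002, 0.003 and 0.031, limma). Cortisol lambs alone gave -1.27, -0.98 and -0.57 for those chains, of which none passed (adjusted p = 0.334, 0.334 and 0.447, limma), as no probe on the array did.

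The basement membrane chains COL4A1 and COL4A2, which form the type IV network around muscle cells and vessels, fell with types I and III, by 1.03 and 1.08 in septum relative to LV (SE 0.11 and 0.13, adjusted p = 2.4e-04 and 4.6e-04, limma). Thus 2 of the 3 other collagen chains tested passed, both lower, beside the 9.95% of all probes called lower, and COL2A1, the cartilage collagen, was at 0.08 ± 0.11. Over 21 alternatives COL4A1 lay between -1.13 and -0.56 and COL4A2 between -1.19 and -0.50. COL4A1 did not pass in 4 of them and COL4A2 in 5. Region was largely confounded with slide for these and the following genes as well. Of the 2 genes of collagen biosynthesis that were measured, HSPA5, a chaperone of the endoplasmic reticulum, fell by 0.70 (SE 0.12, adjusted p = 0.003, limma), and PDIA4, a disulfide isomerase, was at -0.10 ± 0.08. The 3 matrix partners did not pass, at -0.03 ± 0.07 for DCN, 0.00 ± 0.12 for BGN and 0.23 ± 0.08 for FBLN1 (SE). The fibroblast marker VIM (vimentin) was at 0.05 ± 0.06 (adjusted p = 0.558, limma), and 0 of the 4 fibroblast markers passed, DCN and FBLN1 among them.

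Of 8 genes of collagen degradation and receptors, 1 passed, a share below the 19.7% of all probes: TIMP3, a matrix-bound inhibitor of metalloproteinases, fell by 0.48 in septum (SE 0.11, adjusted p = 0.011, limma). The 4 other named genes of that list were TIMP1, a soluble inhibitor of the same enzymes, at 0.01 ± 0.11, ITGB1, the beta 1 chain of collagen-binding integrins, at 0.00 ± 0.08, and the lysosomal proteases CTSB and CTSS at 0.31 ± 0.13 and 0.11 ± 0.09. Among 11 genes of TGF-beta signalling 2 passed lower and 3 higher, where 9.95% and 9.79% of all probes did. The ligands TGFB2 and TGFB1 fell by 0.47 and 0.40 (adjusted p = 0.004 and 0.010, limma), and each passed in 16 of 21 alternatives. The receptor TGFBR1 rose by 0.49 (adjusted p = 0.017, limma). SMAD4, the shared partner of receptor-activated SMADs, and ACVR1, a type I receptor, rose by 0.35 and 0.31 (adjusted p = 0.038 and 0.031, limma). Each of these 2 passed in only 7 of 21 alternatives. CCN2, a matricellular protein induced by TGF-beta, was at 0.20 ± 0.23. Among markers of other cells the endothelial receptor KDR fell by 0.72 (1 of 5 endothelial markers, near the 19.7% of all probes). Of the 5 endothelial markers 3 were higher and 2 lower in septum, with a median difference of 0.01. The myeloid genes TYROBP and FCER1G fell by 0.63 and 0.40 (2 of 5 myeloid markers). Of the 5 myeloid markers 1 was higher and 4 lower, with a median difference of -0.26. The part of these cells in the collagen differences was not tested.

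Whether the cortisol difference itself was unlike in the 2 regions was tested as an interaction. No chain passed, beside 0.0% of 10069 probes (0 at an adjusted p under 0.05, 357 or 3.55% at an unadjusted p under 0.05, limma). The difference of differences, septum minus LV, was 0.52 ± 0.87 for COL16A1, 0.47 ± 0.55 for COL12A1, 0.24 ± 0.27 for COL1A2, 0.15 ± 0.30 for COL3A1, 0.04 ± 0.27 for COL1A1, 0.00 ± 0.14 for COL5A2 and -0.30 ± 0.21 for COL6A1 (SE, adjusted p 0.997 or above, limma). The narrowest interval, that of COL5A2, ran from -0.32 to 0.32, and the widest, of COL16A1, from -1.39 to 2.43.

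Most pairs of chains were positively correlated over lambs, and the exceptions near 0 involved COL12A1 in LV and COL16A1 in septum. Of 21 pairs of chains, 21 had a positive Pearson correlation over the 10 LV arrays (median r 0.59) and 19 over the 10 septum arrays (median r 0.68). After Benjamini-Hochberg adjustment over the 42 relations, 5 pairs passed in LV and 9 in septum (two-sided permutation test of Pearson's r). The lowest r among the passing pairs was 0.72 in LV and 0.75 in septum, and 6 and 9 of the 21 pairs reached it, beside 2.78% and 3.01% of all pairs of probes tested in those regions. Over all those pairs of probes the median r was 0.00067 in LV and 0.0083 in septum, with 50.1% and 50.7% positive. The limits of 0.72 and 0.75 were taken from the chain pairs themselves, so the pairs that passed reach them by construction. By Spearman's rho 2 pairs passed in LV and 4 in septum.

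COL1A2 and COL3A1 were among the closest pairs in both regions, at r = 0.94 and rho = 0.77 in LV (permutation p = 2.9e-04 and 0.012, adjusted 0.003 and 0.056) and r = 0.89 and rho = 0.73 in septum (permutation p = 5.5e-04 and 0.020, adjusted 0.005 and 0.065). Without the 2 arrays farthest from the median of COL1A2, r was 0.82 in LV (exact permutation p = 0.016) and 0.68 in septum (exact permutation p = 0.060). The 2 chains of type I collagen correlated at r = 0.93 and rho = 0.90 in septum (permutation p = 8e-05 and 8.5e-04, adjusted 0.003 and 0.017) and at r = 0.65 and rho = 0.71 in LV, which did not pass (permutation p = 0.045 and 0.027, adjusted 0.0997 and 0.0806). Without the 2 arrays farthest in COL1A1, their r was 0.82 in septum (exact permutation p = 0.0076) and 0.65 in LV (exact permutation p = 0.112).

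COL5A2 and COL12A1 correlated at r = 0.93 and rho = 0.84 in septum (permutation p = 2.1e-04 and 0.0037, adjusted 0.003 and 0.031) and at 0.94 without the 2 arrays farthest in COL5A2 (exact permutation p = 0.0021). In LV the same pair had r = 0.59 and rho = 0.45 (permutation p = 0.079 and 0.191, adjusted 0.145 and 0.276). COL1A1 and COL6A1 correlated at r = 0.90 and rho = 0.75 in LV (permutation p = 2.8e-04 and 0.017, adjusted 0.003 and 0.065) and at r = 0.81 and rho = 0.89 in septum (permutation p = 0.0047 and 0.0012, adjusted 0.028 and 0.017). Without the 2 arrays farthest in COL1A1 these were 0.81 in LV (exact permutation p = 0.0098) and 0.80 in septum (exact permutation p = 0.020). COL16A1, not well above background on 5 of 10 septum arrays, had r between -0.12 and 0.30 with the other chains there.

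The covariation was also computed with treatment means removed and, separately, within a single slide. No setting did both at once. With each value centred on its treatment mean, 4 pairs in LV and 8 in septum passed, with median r of 0.60 and 0.61. Those centred values still mixed the slides. The single slide of 6 arrays held 3 cortisol and 3 control arrays, and treatment means were kept in, so r there still spanned both treatments. Within that slide the median r was 0.52 in LV and 0.61 in septum, and no pair passed the adjustment. The pair COL1A1 and COL1A2 had r = 0.95 there in septum (exact permutation p = 0.0014, adjusted 0.058), and COL1A2 and COL3A1 had 0.89 in LV (exact permutation p = 0.038, adjusted 0.314).

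**Figure D4:**
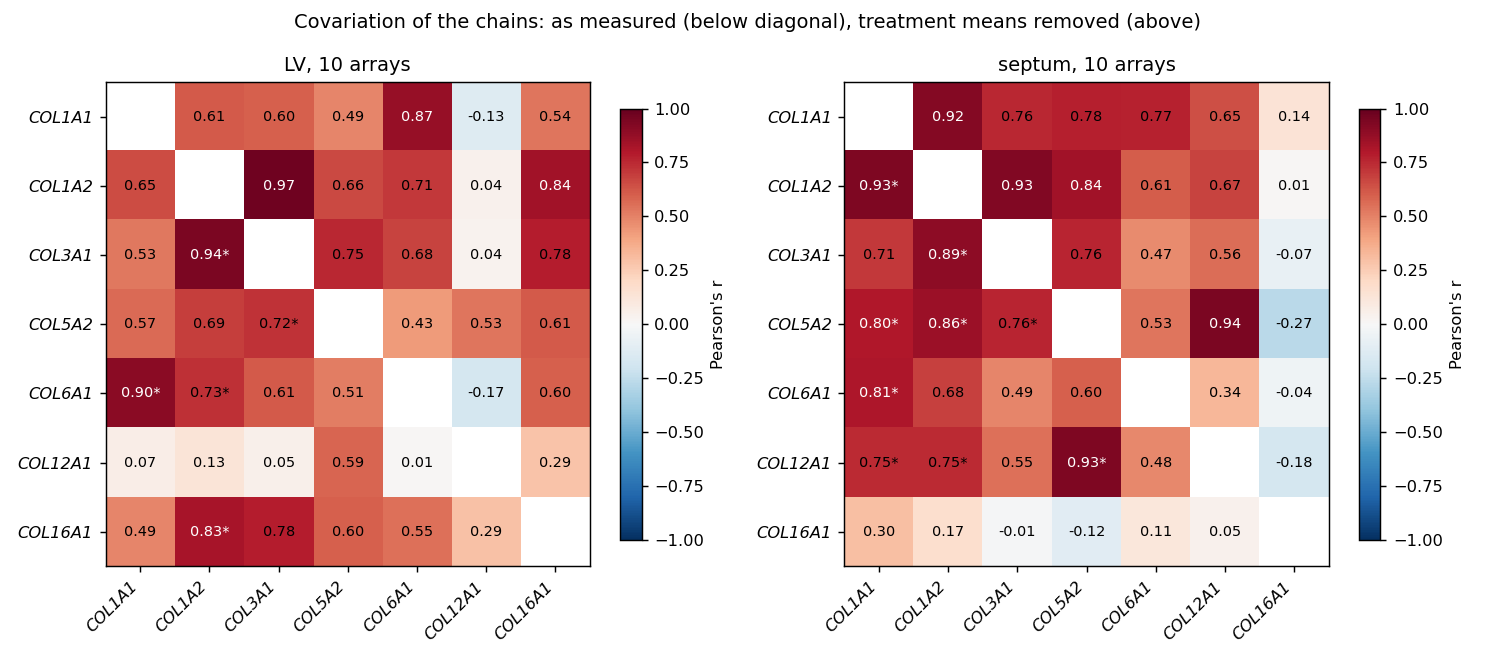
Pearson's r between the lead probes of each pair of chains over the 10 arrays of a region, as measured below the diagonal and with treatment means removed above it; an asterisk, set below the diagonal alone, marks an adjusted permutation p under 0.05. Cells among COL1A1, COL1A2, COL3A1, COL5A2 and COL6A1 are mostly dark in both regions, while those of COL12A1 in LV (save with COL5A2) and of COL16A1 in septum are pale.

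Over all 20 arrays, each centred on its region mean, a chain's lead probe correlated with the mean of the other 6 at 0.91 for COL1A2, 0.81 for COL5A2, 0.80 for COL1A1, 0.74 for COL3A1, 0.69 for COL6A1, 0.43 for COL16A1 and 0.43 for COL12A1. Of 535 other named genes, the 6 with the highest r to the mean of the 7 chains were TF (transferrin, 0.86), COL4A2 (0.86), IGF1 (insulin-like growth factor 1, 0.85), VIM (0.84), INHBA (a chain of activin A, 0.84) and IGF2 (insulin-like growth factor 2, 0.83). Next in order came BGN (0.82), SFXN1 (0.80), FBLN1 (0.79) and INSL3 (0.79). These values describe 20 arrays that share 10 lambs and 4 slides, and no test was made of them.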

How the data were processed

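RNA of LV and septum was measured on 20 one-colour (Cy3) sheep arrays, after Trizol and column purification and labelling of 100 ng, per the labels. Per the file headers and the submitters' processing notes, Agilent Feature Extraction 10.1.1.1 made the deposited processed intensity of each spot by background subtraction with detrending and surrogate values near background, with no normalization between arrays. Raw spot and background intensities, also deposited, served the normexp alternative (offset 50). The authors' deposited value table holds log2 values for 10373 probes, normalized separately by region by a method not given in the sources used here, with column medians of 6.71 to 6.72 in LV and 9.49 to 9.54 in septum. Limma appears in those notes with no version given. That table had values for all 7 lead probes in LV and for 2 in septum.

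For each probe the processed intensity was put on the log2 scale and the 75th percentile of its array was taken off, with 2 to 68 outlier spots per array left out. Probes were named from the files and from the RefSeq annotation of ARS-UI_Ramb_v3.0, and 1373 of 15008 probes, for 850 genes, could be named. Probes well above background on at least 5 of 10 arrays of a region, or 10 of 20, entered two-sided limma fits (version 3.58.1, R 4.3.3), and p-values were adjusted by Benjamini-Hochberg over all probes, with a threshold of 0.05. The 4 fits were tested on simulated data. Covariation used permutation tests with 100000 resamples (exact under 10 arrays) in Python with scipy. Lambs were taken as paired across regions because within-group residuals of such LV and septum arrays correlated at 0.45 to 0.81 across probes and were highest with their own partner in 10 of 10. Cortisol and control arrays with one number were not paired, as the labels give no such pairing. Their r was 0.07 to 0.29 in LV and 0.06 to 0.27 in septum, and 4 of 5 in LV and 3 of 5 in septum exceeded 0.1. The partner of the same number was the highest in 3 of 5 in each region.

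The members, lists and rules were chosen with earlier results of these data known. Context genes are named in order of level, all of a list where 6 or fewer were tested and the 5 brightest otherwise, and likeness to the collagens is the r over 20 arrays. S100A4 and other markers named beside these come from the cell type lists. SMAD7, as an inhibitor, INHBA, as the widest cortisol difference of its list, and TGFBR1, as the widest region difference of that list, were named outside the rule of level. The lambs are separate animals by the labels' n of 5 per group. The number of arrays limits the precision. Alternatives were other scalings, background, filters, probe means, slides and leaving out lambs.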

Additional observations from a re-analysis of the deposited data

Results flagged for a closer look

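COL12A1 in septum stood at -3.49 in control lamb 1, far below the other 4 control lambs, which lay between -2.16 and -1.97. The same lamb was also lowest of the control lambs for this probe in LV, at -3.71, where the probe was not well above background. COL16A1 in LV stood at -5.77 in cortisol lamb 5, against -3.38 to -2.84 in the other 4 cortisol lambs, and the probe was not well above background on that array. These were 2 of 28 groups of 5 arrays examined, and chance alone sets a sample apart by this measure (Dixon's gap over range, critical value 0.71) in about 1 group of 20. No explanation was tested.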

How the results depend on the processing

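No cortisol comparison and no interaction gained a passing probe under any alternative run: 0 probes passed in LV, in septum and in the interaction throughout, with 227 to 1129, 7 to 1814 and 5 to 1043 probes at an unadjusted p under 0.05 (limma). Equal numbers across treatments as a replicate block, which the arrays bore out only in part, also gave 0 probes in LV and 0 in septum. The number of probes passing between the regions, 1988, was 10 with normexp background, 35 with slide as a fixed block, 86 with no replicate block for lamb, 0 on slide 2 alone, 0 in cortisol lambs alone, and 1278 to 2458 when 1 lamb was left out. With normexp, only COL3A1 among the collagens passed. With no replicate block for lamb, no collagen lead probe passed between the regions. COL6A1 and COL16A1 passed in 7 of 21 and 6 of 20 alternatives. Among the context genes SMAD4 and ACVR1 passed in 7 of 21, COL4A1 in 17 of 21, and COL4A2, HSPA5, TIMP3, TGFB2 and TGFB1 in 16 of 21. Where a probe had to be well above background on all arrays, COL16A1 could not be tested, and COL12A1 only in septum. The authors' deposited table had no septum values for 5 chains.

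Signs turned under several settings. On slide 2 alone the LV cortisol differences were -1.63 for COL1A2, -2.18 for COL3A1, -0.42 for COL5A2, -0.28 for COL6A1, -1.81 for COL16A1, -0.13 for DCN and -0.12 for FBLN1. The septum cortisol differences there were -0.068 for COL1A1, -0.37 for COL1A2, -0.60 for COL3A1, -0.34 for COL5A2, -0.14 for COL6A1, -0.30 for COL12A1, -0.14 for DCN and -0.14 for FBLN1. Interactions there were -0.17 for COL1A1, -0.18 for COL5A2, 0.34 for COL6A1 and -1.25 for COL12A1. Slide as a fixed block gave LV cortisol differences of -0.10 for COL3A1 and -0.23 for COL16A1, and as a random block -0.00042 for COL3A1. Between regions, slide 2 alone and slide as a fixed block both gave -0.18 for COL2A1, 0.082 for PDIA4, 0.058 for DCN, -0.016 for ITGB1 and -0.29 for CCN2. Normexp gave region differences of -0.034 for COL5A2, 0.023 for PDIA4, 0.026 for BGN, -0.24 for TIMP1 and -0.060 for ITGB1, and interactions of -0.053 for COL1A1 and -0.013 for COL1A2. Median scaling gave -0.0052 for the COL1A1 interaction, -0.042 for that of COL5A2 and 0.0018 for the BGN region difference, and quantile normalization gave -0.013 for the COL5A2 interaction and region differences of -0.079 for TIMP1 and -0.030 for ITGB1. The mean of both COL1A1 probes gave an interaction of -0.017. Control lambs alone gave region differences of -0.13 for COL2A1 and -0.032 for ITGB1, and cortisol lambs alone 0.048 for BGN and -0.074 for TIMP1. None of these passed.

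With 1 lamb left out, the LV cortisol difference ran from -0.21 to 0.65 for COL3A1 and from -0.088 to 0.65 for COL16A1, and the septum difference from -0.062 to 0.52 for COL3A1. Interactions ran from -0.11 to 0.25 for COL1A1, -0.13 to 0.33 for COL3A1, -0.074 to 0.078 for COL5A2, -0.025 to 0.77 for COL12A1 and -0.26 to 1.00 for COL16A1. Region differences ran from -0.022 to 0.032 for COL5A2, -0.058 to 0.0025 for DCN, -0.11 to 0.052 for BGN, -0.041 to 0.071 for TIMP1, -0.029 to 0.037 for ITGB1 and -0.0027 to 0.30 for CCN2. Covarying pairs, 5 in LV and 9 in septum, numbered 3 and 6 with quantile normalization and 13 and 14 with normexp. They numbered 0 and 0 on the slide with 6 arrays, and 2 to 8 in LV and 4 to 12 in septum without 1 lamb. The cause of these changes was not tested. COL16A1 missed the background limit on 5 of 10 septum arrays and COL12A1 on 1 array of each LV group, which limits their precision.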
